A study of Mus musculus with 16 samples.

Results

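MHC class I antigen presentation genes and the interferon regulatory factors *Irf1* and *Irf7* were examined in hippocampal RNA from postnatal day 1 (P1) and postnatal day 30 (P30) of WT mice and *Mef2c*-het mice, on Illumina MouseRef-8 v2 beadchips. The members were the 9 genes *B2m*, *H2-K1*, *H2-D1*, *H2-T23*, *Tap1*, *Tap2*, *Tapbp*, *Irf1* and *Irf7*, and every probe of the deposited table whose symbol or Entrez gene number is that of a member was taken. This gave 16 probes of 8 genes among the 25697 probes of 17871 genes in the table. No probe of *H2-D1* was found by symbol or gene number, and it was not analysed here. The *Mef2c*-het mice, which the labels call KO, carried 1 conventional exon 2-deleted allele of *Mef2c* in every cell on the C57BL/6J background, and the WT mice were their littermates with no treatment in either genotype. Each group held 4 arrays: WT P1, *Mef2c*-het P1, WT P30 and *Mef2c*-het P30. The labels give neither sex, litter nor chip, and p-values measure the spread between these samples.

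Class I molecules pair a heavy chain, such as *H2-K1*, *H2-D1* or the non-classical *H2-T23* (Qa-1), with the light chain *B2m*, and display peptides at the cell surface. The peptides are cut by proteasomes, carried into the endoplasmic reticulum by the transporter of *Tap1* and *Tap2*, and loaded with the help of *Tapbp* (tapasin). Interferons raise many of these genes through STAT proteins and interferon regulatory factors, of which *Irf1* and *Irf7* are members. In the brain, class I molecules are known from neurons as well as from microglia, vessels and choroid plexus, and mice lacking class I at the surface have altered synapse pruning and hippocampal plasticity.

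Promoters are shown for the 3 genes of this set that have a RefSeq promoter entry and rose between the ages on at least 1 probe. Entries of GRCm38.p6 were held for 8 of the 9 members, each with 250 bases before and 50 after a transcription start. The sequences are written 5′ to 3′ on the strand of the gene, and capitals mark matches, on either strand, to an interferon regulatory factor core (AANNGAAA), a STAT element (TTCNNNGAA) or a kB-like element (GGGNNTTCC). These letters were chosen with the sequences at hand.
*B2m*, chr2:122147437-122147736, + strand: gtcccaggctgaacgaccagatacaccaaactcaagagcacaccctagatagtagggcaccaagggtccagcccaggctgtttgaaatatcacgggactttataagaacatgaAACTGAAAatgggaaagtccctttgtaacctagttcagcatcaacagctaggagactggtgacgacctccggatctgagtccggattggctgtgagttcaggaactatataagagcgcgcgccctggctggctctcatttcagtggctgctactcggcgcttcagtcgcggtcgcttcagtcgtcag
*H2-T23*, chr17:36032652-36032951, - strand: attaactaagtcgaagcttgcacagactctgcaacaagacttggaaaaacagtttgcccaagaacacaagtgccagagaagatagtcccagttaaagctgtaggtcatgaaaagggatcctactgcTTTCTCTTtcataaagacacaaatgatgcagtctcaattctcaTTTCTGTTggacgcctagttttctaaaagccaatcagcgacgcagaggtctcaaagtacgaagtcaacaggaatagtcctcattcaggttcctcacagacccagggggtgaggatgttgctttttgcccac
*Irf1*, chr11:53769764-53770063, + strand: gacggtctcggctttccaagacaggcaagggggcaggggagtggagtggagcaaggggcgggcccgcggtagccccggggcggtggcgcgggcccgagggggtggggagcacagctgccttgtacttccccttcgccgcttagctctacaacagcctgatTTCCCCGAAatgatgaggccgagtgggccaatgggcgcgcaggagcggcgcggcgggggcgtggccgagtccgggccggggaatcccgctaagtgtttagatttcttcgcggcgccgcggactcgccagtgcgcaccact
The *B2m* window held 1 interferon regulatory factor core, whose first base lies at -137 from the start. *H2-T23* held 2, at -124 and -81, and *Irf1* held 1 STAT element at -90. A second *Irf1* entry, from another start (chr11:53770223-53770522), held none of the 3. No marked match overlaps another. Among all 32544 distinct promoter windows of this length, 23.9% held the interferon regulatory factor core, 8.33% the STAT element and 5.85% the kB-like element. Of the other members, *H2-K1* and *H2-D1* each held 1 core and 1 kB-like element, and the windows of *Tap1*, *Tapbp* and *Irf7* held none of the 3. A match is a description of letters and not a measured binding site.

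Between 12638 and 14150 probes were detected on an array (detection p under 0.05 against negative control beads), and the median number of beads behind a probe was 36 to 39. At each age the arrays were divided into 2 clusters, a number set in advance, by the correlation of their log2 signals. The smaller cluster was replicate 8 of both P1 groups at P1, and replicates 6 and 7 of WT and replicate 7 of *Mef2c*-het at P30. By the sex-specific transcripts all 8 P30 mice were male, while the P1 mice were 3 females and 1 male in WT and 2 of each in *Mef2c*-het, so age and sex were not balanced and the part of sex in the age differences was not tested. The brighter *Mef2c* probe (ILMN_2732465) read 9.39, 9.49, 9.57 and 9.61 (log2) in WT P1, 9.15, 9.55, 9.62 and 9.73 in *Mef2c*-het P1, 9.61, 9.80, 9.80 and 9.62 in WT P30, and 9.20, 9.76, 8.97 and 9.92 in *Mef2c*-het P30. Of the 2 other *Mef2c* probes, ILMN_2887992 was detected on all 16 arrays and ranged from 8.59 to 8.96 in WT P30 and from 8.16 to 8.95 in *Mef2c*-het P30, and ILMN_1214950 was detected on 2. *Mef2c* levels overlapped between the genotypes at both ages. Whether a probe lies outside the deleted exon is not known from the table, so these values do not check the genotype labels.

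Of the 16 member probes, 6 were detected on all 16 arrays and 4 on none. The 8 probes tested in every comparison came from 5 genes: 2 each for *B2m*, *H2-T23* and *Irf1*, and 1 each for *Tap2* and *Tapbp*. The other 8 probes were detected on at most 2 arrays and lay between 6.87 and 7.40 on the log2 scale, on 14 to 16 arrays each below the lowest signal detected there (7.27 to 7.38). Among these, the probe of the classical heavy chain *H2-K1* was detected on 2 arrays, that of the transporter subunit *Tap1* on 1 and that of *Irf7* on none. The remaining ones were the last *B2m* probe (ILMN_2670561, no array), 3 *Irf1* probes (ILMN_2624100 and ILMN_2649067, no array, and ILMN_2649068, 1 array) and a second *Tapbp* probe (ILMN_3155492, 2 arrays). Probes of the same gene therefore differed in whether they gave a signal, and the levels of different probes are not set against each other here. Whether the *H2-K1* and *H2-T23* probes also bind other class I heavy chains could not be checked, since no probe sequences were at hand.

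The light chain gene *B2m* (chr2:122147687-122153082) was about 2-fold higher at P30 than at P1 in both genotypes. On the probe ILMN_2739999 the log2 signal was 11.03, 10.78, 10.81 and 10.89 in WT P1 and 11.84, 11.93, 11.76 and 11.72 in WT P30. In *Mef2c*-het mice it was 11.10, 10.33, 10.92 and 10.50 at P1 and 11.77, 11.88, 11.89 and 11.85 at P30. Every P30 array was above every P1 array, and the P1 arrays of *Mef2c*-het mice were the most spread, with replicates 2 and 8 the lowest. The log2 fold change was 0.93 ± 0.13 (SE) in WT and 1.14 ± 0.13 in *Mef2c*-het mice, or 1.91-fold and 2.20-fold (limma adjusted p = 7.96e-06 and 8.66e-07). The second probe, ILMN_1216746, gave 2.02-fold and 2.23-fold. In WT, 7.42% and 6.51% of all 14777 probes tested had a larger rise than these *B2m* probes.

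The interferon regulatory factor *Irf1* (chr11:53770014-53778374), an activator of class I genes, rose on both of its tested probes. On ILMN_2834777 the log2 signal was 8.37, 8.29, 8.36 and 8.51 in WT P1 against 8.97, 8.96, 9.09 and 9.0 in WT P30. In *Mef2c*-het mice it was 8.74, 8.33, 8.38 and 8.49 at P1 and 8.89, 8.85, 8.82 and 8.99 at P30. The ages did not overlap in either genotype, and the highest P1 array was replicate 1 of *Mef2c*-het. The change was 1.54-fold in WT (log2 0.62 ± 0.08 SE, limma adjusted p = 4.46e-06) and 1.32-fold in *Mef2c*-het mice (0.40 ± 0.08, adjusted p = 0.00038). The other probe, ILMN_2599782, rose 1.25-fold and 1.26-fold.

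*Tap2* (chr17:34204479-34216321), a subunit of the peptide transporter, was low at P1 and higher at P30. Its log2 signal was 7.54, 7.42, 7.49 and 7.5 in WT P1, 7.43, 7.46, 7.35 and 7.63 in *Mef2c*-het P1, 7.94, 8.03, 8.03 and 8.29 in WT P30, and 8.0, 7.98, 7.96 and 8.19 in *Mef2c*-het P30. All P30 arrays lay above all P1 arrays, with replicate 7 highest in both P30 groups. The rise was 1.5-fold in WT (adjusted p = 9.07e-06, limma) and 1.48-fold in *Mef2c*-het mice (adjusted p = 1.33e-05). Since the P1 signals lie just above background, the fold depends on how background is treated: after normexp background correction it was 2.54-fold and 2.55-fold, while *Irf1* (ILMN_2599782) reached 1.67-fold and 1.78-fold and *H2-T23* (ILMN_2777471) 1.40-fold and 1.65-fold.

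*H2-T23* (chr17:36029977-36032701), whose product presents leader peptides of other class I chains to natural killer cell receptors, changed less. On ILMN_2777471 the log2 signal was 7.74, 7.78, 7.79 and 7.86 in WT P1, 7.71, 7.96, 7.64 and 7.64 in *Mef2c*-het P1, 7.99, 8.06, 8.10 and 7.98 in WT P30, and 8.21, 7.94, 8.10 and 8.11 in *Mef2c*-het P30. The ages were apart in WT, while in *Mef2c*-het mice P1 replicate 2 reached just above P30 replicate 5. The rise was 1.18-fold in WT (limma adjusted p = 0.0107) and 1.28-fold in *Mef2c*-het mice (adjusted p = 0.00061). On ILMN_1223179, detected on 14 arrays, the change was 1.11-fold (adjusted p = 0.233) and 1.22-fold (adjusted p = 0.0282). The WT call on ILMN_2777471 was lost under median scaling (adjusted p = 0.097), and that of ILMN_1223179 in *Mef2c*-het mice under median scaling (adjusted p = 0.0692) and when P1 replicate 4 or 8 or P30 replicate 3 or 6 was left out (adjusted p from 0.0523 to 0.111).

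*Tapbp* (chr17:33919478-33929290), the tapasin gene, did not pass the test in either genotype. Its probe ILMN_1226819, detected on 8 arrays, had means of 7.34 ± 0.05 (SD, n = 4) in WT P1, 7.29 ± 0.03 in *Mef2c*-het P1, 7.35 ± 0.04 in WT P30 and 7.33 ± 0.07 in *Mef2c*-het P30. The 95% confidence interval of the log2 change ran from -0.10 to 0.12 in WT and from -0.07 to 0.15 in *Mef2c*-het mice.

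Across the 8 tested member probes, 6 were higher at P30 in WT and none lower, and 7 were higher in *Mef2c*-het mice and none lower (adjusted p under 0.05). The background is high, since 59.7% of all probes tested passed in WT, 28.0% as a rise, and 58.3% in *Mef2c*-het mice, 26.9% as a rise. The median log2 change of the member probes was 0.45 in WT and 0.38 in *Mef2c*-het mice, beside -0.03 and -0.02 over all probes. All P30 arrays were above all P1 arrays on 6 member probes in WT, against 25.3% of all probes, and on 5 in *Mef2c*-het mice, against 24.3%. The 2 comparisons use different mice but 1 shared normalization, and 2 probes of a gene are not independent.

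**Figure D1:**
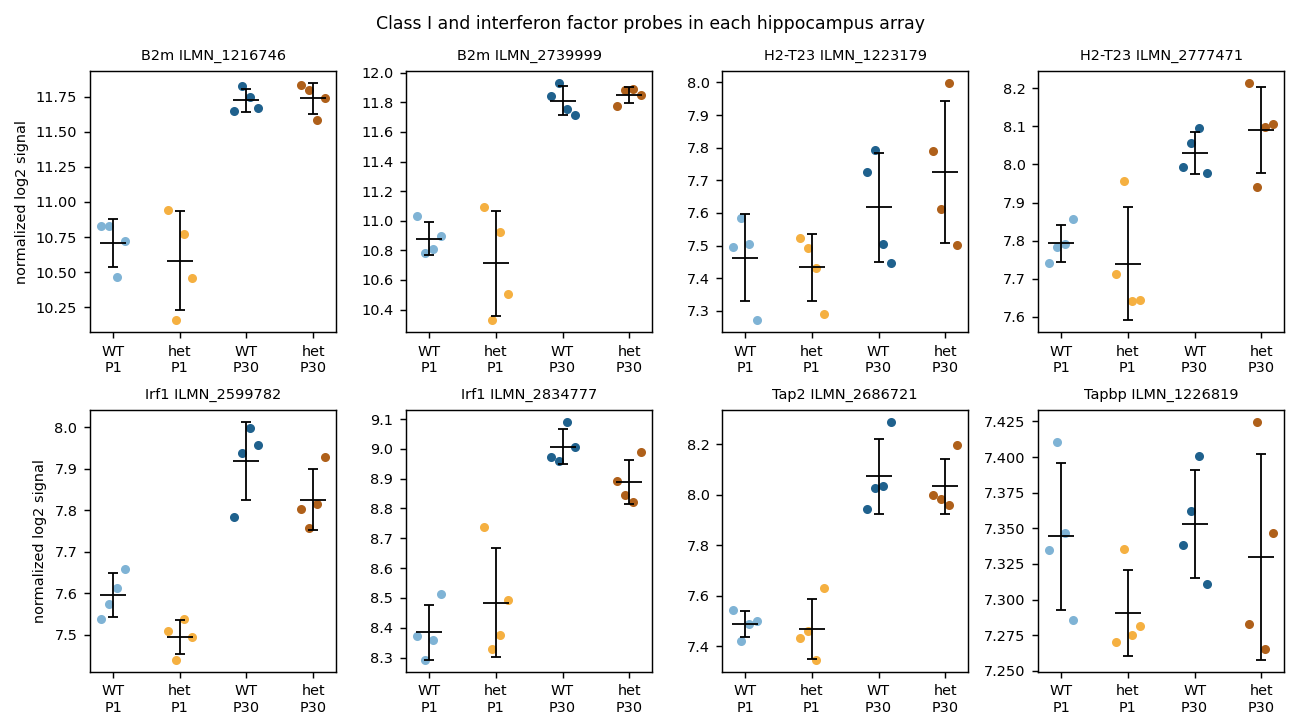
Normalized log2 signal (vertical axis, a scale of its own in each panel) of the 8 tested probes on each of the 16 arrays, by group (het is *Mef2c*-het), with bars for the mean and SD of 4 arrays. *B2m*, *Irf1* and *Tap2* are higher at P30 with no overlap between the ages, *H2-T23* is partly apart and *Tapbp* is not.

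**Figure D2:**
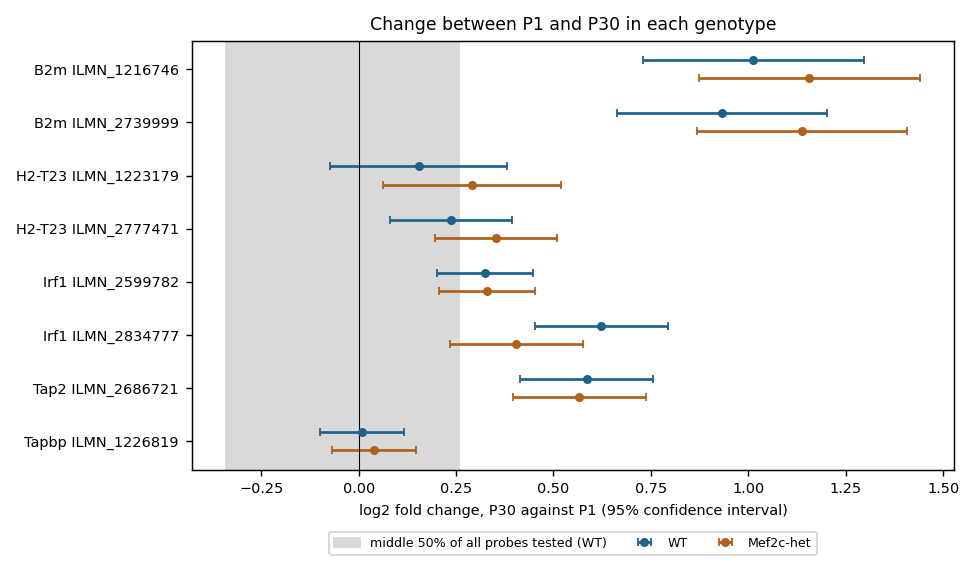
Log2 fold change at P30 against P1 (horizontal axis) of the 8 tested probes in WT and *Mef2c*-het mice, with 95% confidence intervals, over a grey band that holds the middle 50% of all 14777 probes in WT. The *B2m* probes lie farthest right, at 0.93 to 1.16, and the *Tapbp* probe lies near 0.

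No member probe differed between the genotypes at either age after adjustment. At P30, 0 of 8 member probes passed, beside 0.00746% of all 13413 probes (1 probe), and 0 of 8 had an unadjusted p under 0.05, beside 2.36% of all probes. At P1, 0 of 8 passed, beside 0.0% of 13566 probes, and 0 of 8 had an unadjusted p under 0.05, beside 1.62%. The median log2 difference of the member probes was -0.00 at P30 (-0.01 over all probes) and -0.06 at P1 (0.00 over all probes).

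With the signal normalized within an age, *B2m* (ILMN_2739999) at P30 was 11.84 ± 0.05 (SD, n = 4) in *Mef2c*-het mice and 11.80 ± 0.10 in WT, a log2 difference of 0.04 with a 95% interval from -0.11 to 0.19. At P1 it was 10.74 ± 0.35 in *Mef2c*-het mice and 10.91 ± 0.10 in WT, a difference of -0.17 with an interval from -0.51 to 0.17. Without the lowest array, *Mef2c*-het P1 replicate 2, the P1 difference was -0.04. With all 16 arrays normalized together, the means were 10.71 ± 0.36 in *Mef2c*-het P1, 10.88 ± 0.11 in WT P1, 11.81 ± 0.10 in WT P30 and 11.85 ± 0.05 in *Mef2c*-het P30, and of the 3 steps in this order only that between the ages exceeded the spread of its neighbours.

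*Irf1* was the member with the smallest unadjusted p in both genotype comparisons. At P30 ILMN_2834777 was 8.85 ± 0.07 in *Mef2c*-het mice and 8.97 ± 0.06 in WT, a log2 difference of -0.11 (95% interval from -0.25 to 0.02, limma unadjusted p = 0.0945, adjusted p = 0.976, two-sided exact permutation p = 0.0857). ILMN_2599782 differed by -0.09 at P30 and by -0.10 at P1 (exact permutation p = 0.2 and 0.0571, where the smallest possible p of 4 arrays against 4 is 0.0286). After normexp background correction these differences were -0.19 and -0.29, the latter with an unadjusted p of 0.0279 and an adjusted p of 1.0 (limma). At P1 ILMN_2834777 had the other sign, 0.10 with an interval from -0.12 to 0.31. The 2 *Irf1* probes therefore gave no common direction at P1.

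Over the 8 member probes, the 95% intervals of *Mef2c*-het over WT reached from 0.839-fold to 1.29-fold at P30 and from 0.703-fold to 1.24-fold at P1, the lower end at P1 being that of *B2m*. For dim probes these limits depend on the background treatment, and after normexp the intervals of the 8 probes reached from 0.720-fold to 1.89-fold at P30 and from 0.634-fold to 1.40-fold at P1. For *Tap2* the differences were -0.04 at P30 and -0.02 at P1, and for *Tapbp* -0.02 and -0.06. The 2 *H2-T23* probes differed by 0.10 and 0.06 at P30 and by -0.03 and -0.05 at P1.

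**Figure D3:**
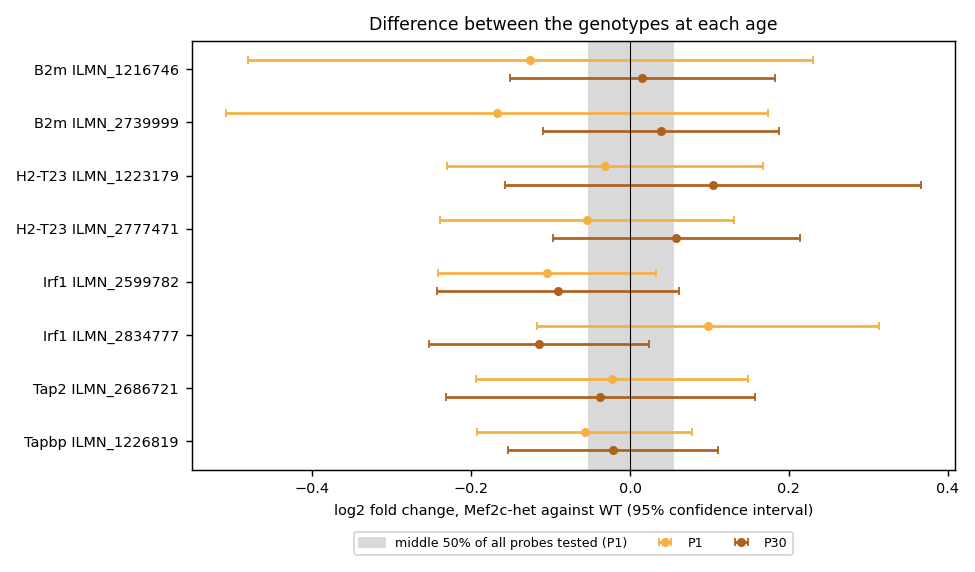
Log2 fold change of *Mef2c*-het against WT (horizontal axis) of the 8 tested probes at P1 and P30, with 95% confidence intervals, over a grey band that holds the middle 50% of all 13566 probes tested at P1. Every interval includes 0, and the widest are those of *B2m* at P1.

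Whether the genotype effect differed between P1 and P30 was tested as an interaction, which passed for 0 of 8 member probes, beside 0.0% of 14777 probes, and gave an unadjusted p under 0.05 for 0 of 8, beside 2.96%. It was 0.20 ± 0.18 (SE) on the log2 scale for *B2m* (ILMN_2739999) and 0.14 ± 0.19 on ILMN_1216746. For *Irf1* (ILMN_2834777) it was -0.22 ± 0.11, the member of smallest unadjusted p (limma adjusted p = 0.998), whose rise with age was 1.54-fold in WT and 1.32-fold in *Mef2c*-het mice.

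Genes around the members in the pathway were taken from lists of heavy chains, peptide supply, interferon signalling, interferon-stimulated genes, class I receptors and class II presentation, with the probe of highest mean signal for each gene. Between the ages they moved in both directions, and their counts stand beside 28.0% of all probes rising and 31.7% falling in WT, and 26.9% and 31.4% in *Mef2c*-het mice. Of 9 tested genes of other class I heavy chains and related molecules, 3 rose and 1 fell in WT, and as many in *Mef2c*-het mice, with a median log2 change of 0.17 and 0.11. The share that rose is near that of all probes, as it is for the list of signalling. For the 8 tested genes of peptide supply it was above that of all probes, with 3 rises in WT and 4 in *Mef2c*-het mice. The genotypes differed there by 1 gene, which is too few to compare them. The excess also depended on the normalization, since only 1 of these genes rose in each genotype under median scaling. *H2-T22*, a ligand of gamma delta T cells, rose 1.19-fold and 1.32-fold, and *H2-M3*, which presents formylated peptides and was detected on 3 and 2 of 4 P1 arrays, rose 1.25-fold and 1.20-fold. *Fcgrt*, the neonatal Fc receptor, rose 1.34-fold and 1.19-fold. *Cd1d1*, which presents lipids, read 8.69 ± 0.17 at P1 in WT and was detected on 1 of 4 P30 arrays in each genotype. As normalized it fell to 0.368-fold in WT and 0.379-fold in *Mef2c*-het mice (limma adjusted p = 3.57e-09 and 5.57e-09). With each P30 array at no less than its lowest detected signal, it was at least 2.57-fold lower at P30 in WT and at least 2.51-fold lower in *Mef2c*-het mice.

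Of 8 tested genes of peptide supply and loading, 3 rose and 2 fell in WT, and 4 rose and 2 fell in *Mef2c*-het mice, with a median log2 change of 0.15 and 0.10. *Psme1* and *Psme2*, the subunits of the interferon-inducible proteasome activator PA28, fell to 0.398-fold and 0.433-fold in WT and 0.402-fold and 0.448-fold in *Mef2c*-het mice. The immunoproteasome subunits *Psmb9* and *Psmb10* rose 1.15-fold and 1.19-fold in WT, and 1.14-fold and 1.23-fold in *Mef2c*-het mice, and *Psme3*, the nuclear activator PA28 gamma, rose 1.14-fold and 1.12-fold. The count of rises was 1 in each genotype under median scaling.

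Of 18 tested genes of interferon receptors and signalling, 6 rose and 3 fell in WT, and as many in *Mef2c*-het mice, with a median log2 change of 0.08 and 0.13. *Irf2*, which competes with *Irf1* for its binding sites, rose 2.27-fold in both genotypes. The RNA sensor *Tlr7*, detected on 1 of 4 P1 arrays in WT, rose 1.31-fold and 1.22-fold. *Socs3*, an inhibitor of cytokine signalling, was detected on 1 of 4 P30 arrays in each genotype and was at least 2.07-fold and 1.96-fold lower at P30 by the same rule. The kinase *Jak2* fell to 0.581-fold and 0.512-fold. *Irf5*, counted among the rises, was detected on no P1 array. With the P1 level set to the lowest detected signal, it was at least 1.11-fold and 1.07-fold higher at P30.

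Of 27 tested interferon-stimulated genes, 12 rose and 2 fell in WT, and 10 rose and 2 fell in *Mef2c*-het mice, with a median log2 change of 0.19 and 0.13. *Ifi27* had the largest rise, from 9.16 ± 0.12 at P1 to 11.64 ± 0.08 at P30 in WT (5.58-fold, limma adjusted p = 1.41e-10) and 5.11-fold in *Mef2c*-het mice. *Ly6e* rose 2.46-fold and 2.68-fold, and *Ifit3*, an antiviral RNA-binding protein, 1.98-fold and 1.86-fold. *Ifitm2*, a membrane protein that blocks virus entry, fell to 0.195-fold and 0.210-fold, and *Ifit2* fell to 0.797-fold and 0.835-fold. The other 13 genes in WT and 15 in *Mef2c*-het mice did not pass. The rises include *Mx2*, detected on no P1 array, on 3 of 4 P30 arrays in WT and on 1 in *Mef2c*-het mice. With the P1 level set to the lowest detected signal, its P30 mean was 1.06-fold of that level in WT and 0.979-fold in *Mef2c*-het mice. *Parp14*, detected on no P1 array in WT, was at least 1.15-fold higher at P30 there.

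Class II presentation had 2 tested genes, and both were called higher at P30, though 1 of them was detected on no P1 array. *H2-DMa*, which helps load class II molecules, rose 2.33-fold and 2.30-fold. *Cd74*, the invariant chain, was not detected on any P1 array, and its P30 signal was at least 1.10-fold higher in WT and at least 1.12-fold higher in *Mef2c*-het mice (limma adjusted p = 0.0456 and 0.00346), with the P1 level set to the lowest detected signal of each array. The WT call of *Cd74* was lost when any 1 of 7 of the WT arrays was left out. Of the class I receptors and partners only *Klrb1c*, a natural killer cell receptor, was tested, and it did not pass.

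None of these genes passed between the genotypes (limma, adjusted p under 0.05). At P30 0 of 57 passed and 2 had an unadjusted p under 0.05, at P1 0 of 54 passed and 1 had, and in the interaction 0 of 65 passed and 1 had, beside unadjusted shares of 2.36%, 1.62% and 2.96% over all probes. The smallest unadjusted p at P30 was that of *Irf9*, the DNA-binding subunit of the complex that type I interferons activate, with a log2 difference of -0.15 ± 0.06 (SE, exact permutation p = 0.0286, limma adjusted p = 0.976). *Stat2* differed by -0.14 ± 0.06 and *Ly6e* by 0.13 ± 0.06, with the same exact permutation p of 0.0286, the smallest possible. The groups did not overlap for these 3 genes, as for 1.75% of all probes tested at P30. The 3 genes were named for a small p in their lists, so that share is not a measure of them. At P1 the smallest was that of *Ifngr1*, a chain of the interferon gamma receptor, at -0.19 ± 0.08 (exact permutation p = 0.114), followed by *Fcgrt* at 0.21 ± 0.10 (exact permutation p = 0.114).

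**Figure D4:**
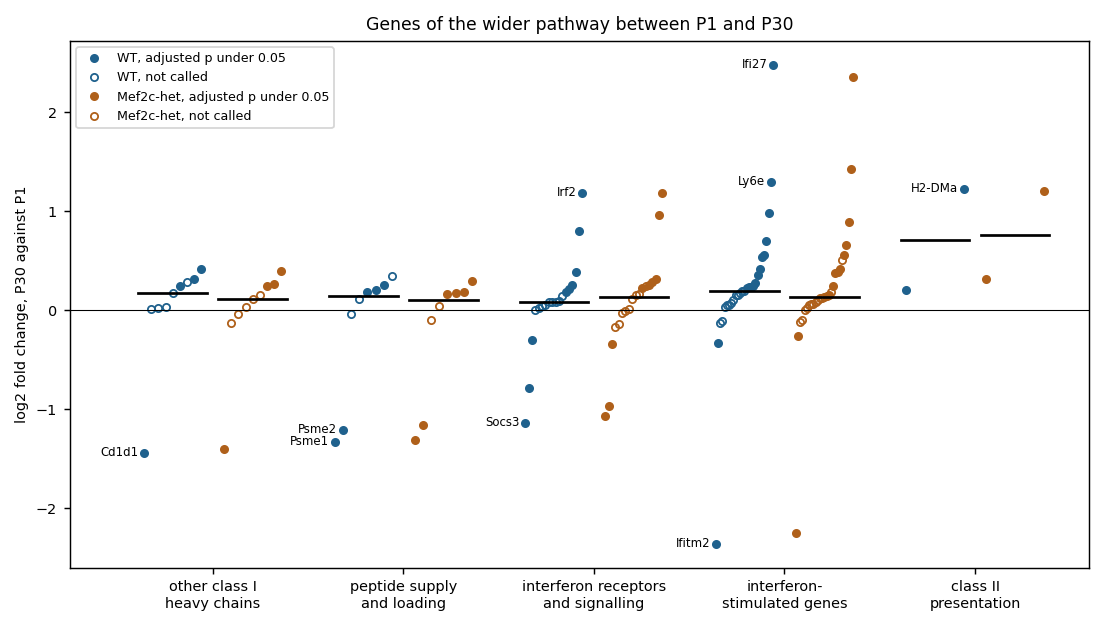
Log2 fold change at P30 against P1 (vertical axis) of each tested gene of the wider pathway, by list, in WT (blue) and *Mef2c*-het mice (brown), with filled points for an adjusted p under 0.05, open points for genes not called and black lines for the list medians. The medians of the 5 lists drawn lie between 0.08 and 0.76, and the 1 tested gene of class I receptors is left out, with single genes from -2.36 (*Ifitm2*) to 2.48 (*Ifi27*) in WT.

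Markers of cell types that carry class I molecules also differed between the ages. In bulk tissue, fewer cells of a type and less RNA per cell cannot be told apart. Of 15 tested microglia markers 11 were higher at P30 in WT and all 15 in *Mef2c*-het mice, and the summed signal of the 16 genes ranged from 5127 to 5965 in WT P1, 4575 to 5583 in *Mef2c*-het P1, 7861 to 9708 in WT P30 and 8141 to 10255 in *Mef2c*-het P30. The shares of all probes that rose were 28.0% and 26.9%. *Itgam* was detected on no array. Between the genotypes no microglia marker passed, but at P1 12 of 15 were lower in *Mef2c*-het mice and 5 had an unadjusted p under 0.05 (1.62% of all probes), with a median log2 difference of -0.14 beside -0.17 for *B2m* (ILMN_2739999). At P30 12 of 15 were higher and 3 had an unadjusted p under 0.05 (2.36% of all probes). Of these, *C1qb* (log2 difference 0.26) and *C1qa* (0.26) were higher, while *Gpr34* was lower (-0.20), as it was at P1 (-0.34). The median log2 difference of the markers at P30 was 0.10, beside 0.04 for *B2m*. Of 5 tested markers of border macrophages 4 were lower at P30 in each genotype, and of 9 endothelial markers 3 rose and 3 fell in WT, and 3 rose and 4 fell in *Mef2c*-het mice. A rise was not particular to microglia. Of 7 astrocyte markers 6 were higher at P30 in each genotype, and of 7 oligodendrocyte markers 7 in WT and 6 in *Mef2c*-het mice. Of 6 tested neuron markers 3 rose and 2 fell in each genotype. Of 8 T cell markers, *Cd3d*, *Cd4* and *Cd2* were detected on no array and 3 were tested. *Thy1*, which neurons also express, rose 8.32-fold and 8.10-fold, *Lck* fell to 0.557-fold and 0.597-fold, and *Cd3e* did not pass. The part of these cell types in the age and genotype differences of the members was not tested.

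The probes whose deviations from their group means were most like those of *B2m* (ILMN_2739999) over the 16 arrays were those of *Cox6b2* (r = 0.89), *1110017D15Rik* (0.88), *Spaca9* (0.88), *Otx2* (0.84), *Nudc* (0.84), *Wdr78* (0.83), *Sulf1* (0.83) and *Calml4* (0.82), of 14775 probes of other genes, of which 1% had an r above 0.63. The second *B2m* probe had an r of 0.82. The *B2m* deviations were largest in *Mef2c*-het P1 (SD 0.36, beside 0.11 in WT P1, 0.10 in WT P30 and 0.05 in *Mef2c*-het P30). The arrays of that group therefore weigh most in these r values. *Otx2* is a transcription factor of the choroid plexus, the secretory epithelium that lies against the hippocampus in the lateral ventricle. All 8 probes had lower mean signals at P30 than at P1 in both genotypes, where *B2m* was higher.

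The choroid plexus markers *Ttr*, *Kl*, *Clic6*, *Folr1* and *Otx2* varied widely between arrays. Their summed signal was 31821, 19107, 6493 and 6917 in WT P1, 22901, 2168, 25860 and 7110 in *Mef2c*-het P1, and 22282, 2571, 1311 and 2247 in WT P30. It lay between 1998 and 4631 in *Mef2c*-het P30. The array with the lowest sum at P1, *Mef2c*-het replicate 2, was also that of the lowest *B2m* and of the lowest mean of the microglia markers. The group medians of the sum were 13012 and 15006 in WT and *Mef2c*-het mice at P1 and 2409 and 2631 at P30, lower at P30 where *B2m* was higher. With the mean log2 signal of these markers as a covariate, an alternative chosen after seeing the data, the *B2m* change (ILMN_2739999) was 1.09 in WT and 1.29 in *Mef2c*-het mice, and the genotype difference was -0.13 at P1 and 0.04 at P30. The same covariate took the WT call from *H2-T23* (ILMN_2777471, 0.18, limma adjusted p = 0.0549). The covariate itself differed between the ages, and the part of choroid plexus in the age and genotype differences of the members was not tested.

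**Figure D5:**
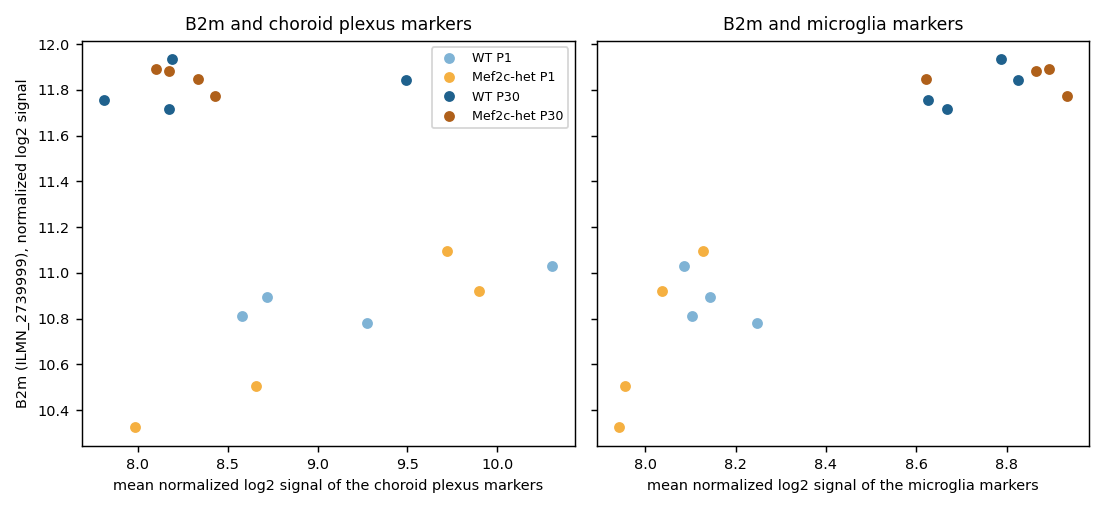
*B2m* signal (ILMN_2739999, log2) on each of the 16 arrays against the mean log2 signal of 5 choroid plexus markers (left) and 16 microglia markers (right), by group. The P1 and P30 arrays are apart on the vertical axis at all choroid plexus levels, and the microglia means lie between 7.94 and 8.25 at P1 and between 8.62 and 8.93 at P30.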

How the data were processed

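Illumina MouseRef-8 v2 arrays of hippocampal RNA were read from the deposited bead intensities, a linear scale not normalized between arrays, and from the detection p-values that the authors deposited beside them. The methods describe log2 transformation and quantile normalization, and the submitters' processing notes name lumi and limma. The same steps were run here with R 4.3.3 and limma 3.58.1 over the arrays of each fit, 8 for a genotype comparison and 16 for the ages and the interaction. Probes detected (p under 0.05) on 4 or more arrays of the fit were tested two-sidedly with lmFit and eBayes, with the Benjamini-Hochberg method applied to all of them. The steps were tested on simulated data. Of 25697 probes 25376 matched the RefSeq gene table (GRCm38.p6). The members and lists were chosen with earlier results of these data known. Named were all member probes and, of each list, at most 3 largest rises and 2 largest falls called in both genotypes and 2 genes of smallest p per genotype comparison. Also named were list genes counted as rises though detected on no P1 array. The number of arrays limits the precision. Alternatives were normexp (offset 16), median scaling, cyclic loess, filters (none, or a detection p under 0.01), trend and robust variances, cluster and replicate blocks, sex and choroid plexus covariates, other sets of arrays, and leaving out each array.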

Additional observations from a re-analysis of the deposited data

Results flagged for a closer look

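Of 32 sets of 4 arrays (8 tested member probes in 4 groups), 2 held an array far from the other 3 by Dixon's gap ratio, where about 1 in 20 would by chance. For *Tap2* in *Mef2c*-het P30, replicate 7 read 8.19, with the next array at 8.0 and a ratio of 0.841. For *Tapbp* in *Mef2c*-het P1, replicate 2 read 7.34, with the next at 7.28 and a ratio of 0.830.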

How the results depend on the processing

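The 0 calls among members in each genotype comparison and in the interaction held under every alternative run. The count called between the ages was 5 to 7 of 8 in WT (5 under median scaling and with the choroid plexus covariate, 7 with the array cluster block) and 6 or 7 in *Mef2c*-het mice. Same-numbered arrays of the 2 genotypes deviated together with r from 0.09 to 0.83 at P1 and from -0.53 to 0.71 at P30, so the numbers were not taken as pairs, and with the replicate block 0 member probes were called in the 3 comparisons it could enter.

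Several uncalled log2 differences near 0 changed sign. *B2m* (ILMN_1216746) at P30 was -0.0288 with the replicate block, -0.0018 in the larger array clusters alone, and -0.0167 to 0.0683 when 1 array was left out, and ILMN_2739999 was -0.0369 in the larger clusters. *Tap2* at P30 was 0.0089 with the cluster block and -0.0905 to 0.0325 without 1 array. At P1, leaving out 1 array gave -0.244 to 0.0141 for *B2m* (ILMN_1216746), -0.104 to 0.0198 for *H2-T23* (ILMN_1223179, 0.0108 with sex as a covariate) and -0.0819 to 0.0199 for *Tap2*. *Tapbp* between the ages in WT was -0.0152 in the larger clusters, -0.0037 with the choroid plexus covariate and -0.0112 to 0.0303 without 1 array. The cause was not tested.

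Normexp raised the age changes of dim probes by over 1.5 times (*Tap2* to a log2 of 1.34 in WT) and those of *B2m* by less. A block for the chip was not run, since the columns do not name chips.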
